A study of Mus musculus with 16 samples.

Results

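The balance of an active and a Polycomb histone mark at gene promoters was measured in mesenchymal stromal cells of the endosteum, the lining between bone and marrow, from control mice of the strain C57BL/6J. These mice were Bap1fl/fl, called Wild Type by the submitters (WT here): both Bap1 alleles carried loxP sites and the labels name no Cre. Chromatin immunoprecipitation with sequencing (ChIP-seq) of formaldehyde-fixed, sonicated cells was compared between 2 H3K4me3 libraries and 2 H3K27me3 libraries, 4 of the 16 libraries of the series, over the 3789 autosomal promoters among the 3925 measured. A promoter is the 4 kb around a gene start, and the members were all autosomal genes of the deposited table, with no choice by level. The other libraries used were 2 each of H2AK119ub1 and H3K27ac from the same WT cells, and 2 each of H3K4me3 and H3K27me3 from cKO cells, in which Prx1-cre, a Cre driven in the limb mesenchyme, removed Bap1. The labels used here give neither age nor sex, nor whether the 2 libraries of a mark came from separate animals, so p-values measure the spread between libraries, which may be technical.

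The antibody field of the libraries titled H3K4me3 names the antibody against acetylated H3K27, and that of the libraries titled H3K27ac names the one against H3K4me3. The titles were followed. The counts of calls, focal rises and classes are also given by the antibody field. The gene lists, the profiles, the levels by decile and by CpG content, the H3K27ac levels and the comparison with cKO were made by title only. Every measured gene also carries a deposited mark of UP (1849 autosomal genes) or DOWN (1940), but no source at hand says from which contrast, so these promoters are a selection and not a sample of the genome.

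H3K4me3, trimethylation of lysine 4 of histone H3, is placed by the COMPASS and trithorax family of methyltransferases and marks the starts of active or poised genes, most of all at CpG islands. H3K27me3 is placed by EZH1 or EZH2 within Polycomb repressive complex 2 and covers silent developmental genes, often as domains of several kilobases. Promoters that carry both marks are called bivalent and are best known from stem cells, where many belong to regulators of other lineages.

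The sequences of 5 promoters show the classes that the values below separate, as the 250 bases before the gene start from RefSeq on GRCm38.p6, written 5′ to 3′ on the gene's strand, with each CpG in capitals. Foxc1 and Col1a2 carried H3K4me3, Gata2 and Rag1 carried H3K27me3, and Jag1 carried both.
Foxc1, chr13:31806396-31806645, plus strand: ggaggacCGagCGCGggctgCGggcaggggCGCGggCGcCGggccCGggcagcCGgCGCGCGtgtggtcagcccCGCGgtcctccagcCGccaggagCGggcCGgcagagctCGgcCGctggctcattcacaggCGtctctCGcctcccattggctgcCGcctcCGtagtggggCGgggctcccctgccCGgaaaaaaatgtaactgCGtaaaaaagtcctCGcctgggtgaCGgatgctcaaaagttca
Col1a2, chr6:4505368-4505617, plus strand: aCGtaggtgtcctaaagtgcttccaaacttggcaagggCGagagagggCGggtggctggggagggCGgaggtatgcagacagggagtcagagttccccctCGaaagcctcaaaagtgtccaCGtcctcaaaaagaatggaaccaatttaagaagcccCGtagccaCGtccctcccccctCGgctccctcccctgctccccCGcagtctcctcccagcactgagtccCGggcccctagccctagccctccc
Gata2, chr6:88193641-88193890, plus strand: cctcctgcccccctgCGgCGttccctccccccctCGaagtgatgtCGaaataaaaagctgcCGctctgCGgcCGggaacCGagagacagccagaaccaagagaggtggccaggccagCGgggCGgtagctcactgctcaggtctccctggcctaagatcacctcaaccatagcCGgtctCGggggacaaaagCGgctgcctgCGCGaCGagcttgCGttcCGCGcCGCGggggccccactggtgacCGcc
Rag1, chr2:101649533-101649782, minus strand: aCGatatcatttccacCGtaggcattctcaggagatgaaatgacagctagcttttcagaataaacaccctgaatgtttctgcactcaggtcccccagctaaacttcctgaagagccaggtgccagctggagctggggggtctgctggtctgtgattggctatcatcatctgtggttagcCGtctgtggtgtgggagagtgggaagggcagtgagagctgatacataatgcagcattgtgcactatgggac
Jag1, chr2:137116521-137116770, minus strand: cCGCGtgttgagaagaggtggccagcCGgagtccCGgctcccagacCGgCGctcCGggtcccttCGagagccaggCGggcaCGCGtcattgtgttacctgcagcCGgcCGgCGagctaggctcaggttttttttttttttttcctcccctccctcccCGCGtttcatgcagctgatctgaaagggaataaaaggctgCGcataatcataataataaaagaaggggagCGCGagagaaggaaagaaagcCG
CpG density did not follow the mark within this set: the 250 bases held 29 CpGs at Foxc1 and 22 at Gata2, on opposite sides of the balance, against 11 at Col1a2 and 3 at Rag1.

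The 4 libraries held 1233909 and 1287104 counts (H3K27me3) and 6019082 and 7540707 counts (H3K4me3) in the autosomal 10 kb windows. Each read was counted in about 3 neighbouring bins of 50 bp, and counted once the reads numbered 413035, 430955, 2009199 and 2517232. The median promoter held 94 and 107 counts for H3K27me3 against 1060 and 1332 for H3K4me3. Promoter levels of replicate libraries correlated across promoters with Pearson r = 0.986 for H3K4me3 and 0.878 for H3K27me3, so the Polycomb mark is the less precisely measured. Of the stromal genes set as markers, the promoters of Col1a1, Col1a2, Col6a3, Cxcl12 and Twist2 were called higher in H3K4me3 and that of Thy1 higher in H3K27me3. Of the blood, osteoclast, epithelial, endothelial, neural and muscle markers, 3 of 21 tested promoters were called higher in H3K4me3, against 57.9% of all promoters tested, and 16 higher in H3K27me3, against 30.8%. The 3 were Ctsk, Eng and Tnnc1.

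H3K4me3 was gathered at the gene start and H3K27me3 was spread over the window. The central 4 kb held 78.4% ± 0.052 (SD, n = 2) of the H3K4me3 counts and 43.6% ± 0.778 (SD, n = 2) of the H3K27me3 counts, where an even spread would give 40%. The bin of highest mean level stood 17.2 ± 0.561 times above the outer flanks for H3K4me3 and 1.35 ± 0.0569 times for H3K27me3 (SD, n = 2 each). Of the counts within promoters, 67.9% ± 0.442 lay downstream of the start for H3K4me3 and 51.9% ± 0.0151 for H3K27me3 (SD, n = 2 each). The libraries of the marks did not overlap in these 3 measures, and the exact permutation test, two-sided, gave p = 0.33 for each, the smallest value that 2 against 2 libraries allow.

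Per promoter, levels are in CPM, counts scaled so that a library's autosomal windows sum to 1000000, and the balance is the log2 ratio of H3K4me3 to H3K27me3. By edgeR's quasi-likelihood test with Benjamini-Hochberg adjustment over the 3765 promoters tested, 2179 (57.9%) were higher in H3K4me3 and 1159 (30.8%) higher in H3K27me3 at an adjusted p of at most 0.05. The median balance was 1.20, and the zero point between 2 antibodies depends on the scaling: TMM factors moved the median by -0.88, scaling on promoter counts by -0.85 and scaling on the outer flanks by 1.64. These scalings gave 1696 and 1451, 1707 and 1436, and 2685 and 527 calls for H3K4me3 and H3K27me3. H3K4me3 thus made up 65.3% of calls here, and 53.9%, 54.3% and 83.6% under those scalings. With the active mark taken by the antibody field, 1945 and 1075 promoters were called and the median was 0.77. The window mattered as well: counts over 2 kb gave a median of 1.98 with 2347 and 963 calls, and over the whole 10 kb a median of 0.15 with 1641 and 1511 calls. Under all 4 scalings, 1688 promoters (44.8%) were called higher in H3K4me3 and 527 (14%) higher in H3K27me3. Single balances below are read against the median of 1.20, since a scaling moves all promoters together.

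**Figure D1:**
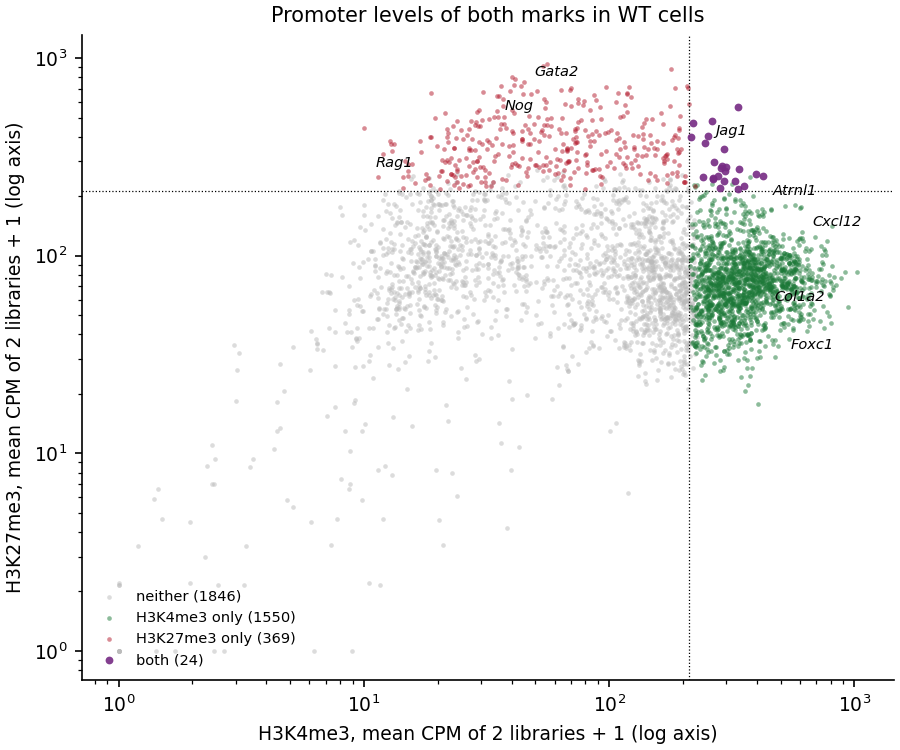
Mean level of each autosomal promoter in the 2 H3K4me3 libraries (x axis) and the 2 H3K27me3 libraries (y axis), in CPM plus 1 on log axes, coloured by class, with dotted lines at 211 CPM. The points form 2 arms along the axes, with 24 promoters in the corner where both marks are high.

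High levels of the marks fell on different promoters. If counts were spread evenly over the windows, a promoter would hold 105.6 CPM, and a promoter was put in a mark's class when both libraries reached 2 times that level, 211 CPM. By this cutoff 1550 promoters (40.9%) carried H3K4me3 only, 369 (9.74%) H3K27me3 only, 24 (0.633%) both and 1846 (48.7%) neither. Of the promoters at this level of H3K27me3, 24 of 393 (6.11%) also reached it in H3K4me3, whereas 1574 of all 3789 (41.5%) did. The top 10% of promoters by one mark and by the other, 379 each, shared 0 promoters. At the top 5% they also shared 0, and at the top 20% 25 of 758 (3.30% of each list). Independent lists would share 37.9, 9.43 and 151.6 promoters at the top 10%, 5% and 20%. Promoters just inside the cutoff had 211.3 CPM in the lower H3K27me3 library and those just outside 210.6 CPM (211.4 and 210.7 CPM for H3K4me3), so the classes cut a continuous range.

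The H3K4me3-only class numbered 1854 at 1.5 times and 884 at 3 times the even level, 1023 by the antibody field and 2115 over 2 kb. The number of promoters with both marks depended on the cutoff: 111 reached 1.5 times the even level in both marks and 1 reached 3 times. With the active mark taken by the antibody field it was 4, beside 389 with H3K27me3 only. Over 2 kb around the start it was 79, beside 353 with H3K27me3 only, so the share of H3K27me3 promoters with both marks also depends on the window. Across all promoters the log2 levels (CPM plus 1) of the marks had Pearson r = 0.004 and Spearman rho = -0.187, as a description over promoters that share libraries and base composition. The relation was not a straight line. The median H3K27me3 level was 67.3 CPM in the lowest decile of promoters by H3K4me3, 134 CPM in decile 3, and 68.4 to 75.1 CPM in each of the highest 4 deciles.

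H3K27me3 was called higher at many promoters that were put in neither mark's class. Of the 1159 calls toward H3K27me3, 369 (31.8%) reached 211 CPM of H3K27me3 in both libraries and 790 (68.2%) were in neither class. Among these 790, 388 lay above the even level in mean H3K27me3. Over all 1159, the median was 149 CPM of H3K27me3, against 79.6 CPM over all promoters, and 26.6 CPM of H3K4me3, against 175 CPM over all promoters.

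The 10 promoters of lowest p toward H3K4me3 belonged to Itprip, Arhgap21, Klf10, Ier2, Gli3, Foxc1, Msl2, Bora, Bcl6 and St7l. Their balances lay between 3.36 and 3.93, all with adjusted p = 1.24e-05 by edgeR's quasi-likelihood test. Itprip (chr19:47917300-47921299), which encodes a partner of the inositol trisphosphate receptor, had 657 and 647 CPM of H3K4me3 and 47.0 and 38.8 CPM of H3K27me3. Foxc1 (chr13:31804633-31808632), a forkhead factor needed by the marrow's Cxcl12-rich niche cells, had 494 and 497 CPM of H3K4me3 and 44.6 and 37.3 CPM of H3K27me3. Its balance was 3.60 ± 0.19 (SE). The group also holds Gli3, a transcription factor of hedgehog signalling, Klf10, a zinc finger factor induced by TGF-beta, Ier2, an immediate early gene, and Bcl6, a transcriptional repressor. The libraries of the marks did not overlap at any of these promoters, which the rule for naming them required.

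The 10 of lowest p toward H3K27me3 were Crispld2, Unc13b, Trp53i11, Bmyc, Jakmip3, Nog, Epn3, Vldlr, Sema4d and Fam189a2, with balances between -4.89 and -3.94 and the same adjusted p. Nog (chr11:89300333-89304332), which encodes the BMP antagonist noggin, had 500 and 509 CPM of H3K27me3 and 34.6 and 31.2 CPM of H3K4me3. Its balance was -3.94 ± 0.17 (SE). Trp53i11 (chr2:93185548-93189547), a gene induced by p53, had 666 and 621 CPM of H3K27me3 and 35.9 and 32.9 CPM of H3K4me3. The H3K27me3 libraries of these 10 held at least 323 CPM and the H3K4me3 libraries at most 36.4 CPM. Of these 10 genes 9 carried the mark UP, against 65.1% of all promoters called higher in H3K27me3 and 48.8% of all autosomal genes.

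The counts of the gene lists below are read against 57.9% of all promoters called toward H3K4me3 and 30.8% toward H3K27me3, or 44.8% and 14% under all 4 scalings. The matrix, niche and stromal progenitor lists had somewhat larger shares toward H3K4me3, a difference that was not tested. Of their genes, 27 of 35, 14 of 17 and 14 of 18 carried the mark DOWN. Among all tested genes marked DOWN, 65.3% were called toward H3K4me3, and the part of this in the lists was not tested. Of 35 tested genes of fibrillar collagens and matrix, 22 were called higher in H3K4me3 and 6 in H3K27me3 (22 and 1 under all 4 scalings), with a median balance of 2.10 against 1.20 for all promoters. Loxl3 (chr6:83032173-83036172), a lysyl oxidase that crosslinks collagen, had 861 and 812 CPM of H3K4me3 against 64.0 and 75.4 CPM of H3K27me3. Col5a1, a fibrillar collagen chain, had 712 and 674 CPM against 64.0 and 73.0 CPM. At both promoters each H3K4me3 library stood above each H3K27me3 library. The windows of Loxl3 and Col5a1, and of Bmp4, Thpo and Sema5a below, overlap that of another measured gene, so their reads cannot be told from the neighbour's. The type I collagen genes had smaller balances: Col1a1 had 374 and 338 CPM against 41.3 and 72.3 CPM, a balance of 2.64 ± 0.27 (SE, adjusted p = 6.54e-05 by edgeR's quasi-likelihood test). Col1a2 had 457 and 397 CPM against 66.5 and 78.5 CPM, a balance of 2.56 ± 0.19 (SE).

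Among the matrix genes, 3 were in the H3K27me3-only class. Col14a1 (chr15:55305750-55309749), a fibril-associated collagen, had 807 and 565 CPM of H3K27me3 against 68.1 and 68.3 CPM of H3K4me3. Col27a1 had a balance of -1.33, and Timp3, a metalloproteinase inhibitor, had 274 and 237 CPM against 188 and 154 CPM. The Timp3 libraries did not overlap, but its call was lost under another scaling. Nid1, with counts of 0 in both H3K27me3 libraries and 9.97 and 5.83 CPM of H3K4me3, is called from almost no reads and no ratio is given for it.

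Niche genes, whose products hold and instruct blood stem and progenitor cells, gave 12 calls toward H3K4me3 and 5 toward H3K27me3 of 17 tested (11 and 2 under all 4 scalings), with a median balance of 1.95. Cxcl12 (chr6:117166574-117170573), the chemokine that retains blood stem cells and lymphoid progenitors, had 631 and 594 CPM of H3K4me3 and 137 and 125 CPM of H3K27me3. Kitl (chr10:100013630-100017629), the stem cell factor, had 551 and 527 CPM of H3K4me3 and 126 and 72.3 CPM of H3K27me3. In both genes each H3K4me3 library was above each H3K27me3 library, with balances of 2.22 ± 0.17 and 2.44 ± 0.26 (SE). Thpo, which encodes thrombopoietin and shares its window with Chrd, lay on the other side with 621 and 507 CPM of H3K27me3 against 87.4 and 94.8 CPM of H3K4me3. Bmp4, a bone morphogenetic protein, had 398 and 371 CPM of H3K27me3 against 31.4 and 30.2 CPM of H3K4me3.

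Of 18 tested genes of stromal progenitors and limb mesenchyme, 12 were called toward H3K4me3 and 5 toward H3K27me3 (10 and 3 under all 4 scalings), with a median of 2.13. Itga5, the fibronectin receptor subunit, had 556 and 604 CPM of H3K4me3 against 62.4 and 45.1 CPM of H3K27me3. Twist2, a mesenchymal basic helix-loop-helix factor, had 551 and 547 CPM against 84.3 and 75.4 CPM. Pitx1, the homeodomain factor of hindlimb identity, had the reverse, with 332 and 249 CPM of H3K27me3 against 12.96 and 15.4 CPM of H3K4me3. Thy1, a surface glycoprotein used to sort stromal cells, had 176.7 and 118.9 CPM of H3K27me3 against 14.5 and 21.5 CPM of H3K4me3. The Hox genes tested gave 4 calls toward H3K4me3 and 1 toward H3K27me3 of 5 (3 and 0 under all 4 scalings). Hoxc10, a posterior Hox gene, had 701 and 685 CPM of H3K4me3 against 60.8 and 82.4 CPM.

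The adipocyte, bone and cartilage lists differed. For adipocyte genes 9 of 10 were called toward H3K4me3 and 1, Lpl, toward H3K27me3 (7 and 0 under all 4 scalings), with a median of 1.81. Pparg (chr6:115358951-115362950), the master regulator of fat cell formation, had 414 and 443 CPM of H3K4me3 against 72.1 and 76.1 CPM of H3K27me3, a balance of 2.53 ± 0.17 (SE). Of 11 osteoblast genes 5 were called toward H3K4me3 and 2 toward H3K27me3 (5 and 1 under all 4 scalings), with a median of 0.19. Those toward H3K27me3 were Alpl, the alkaline phosphatase of mineralising cells, with 132 and 201 CPM against 34.2 and 33.1 CPM, and Tnfsf11, the osteoclast differentiation factor RANKL, with a balance of -2.18. Of 8 cartilage and tendon genes 1 was called toward H3K4me3 and 5 toward H3K27me3 (1 and 1 under all 4 scalings), with a median of -0.85. The 1 was Sox9, the master regulator of cartilage, with 439 and 433 CPM against 85.1 and 106 CPM. Comp, a cartilage matrix protein, had 306 and 267 CPM of H3K27me3 against 37.9 and 44.3 CPM of H3K4me3. In the cartilage and tendon list 6 of 8 genes carried the mark UP, of which 41.2% among all tested were called toward H3K27me3.

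**Figure D2:**
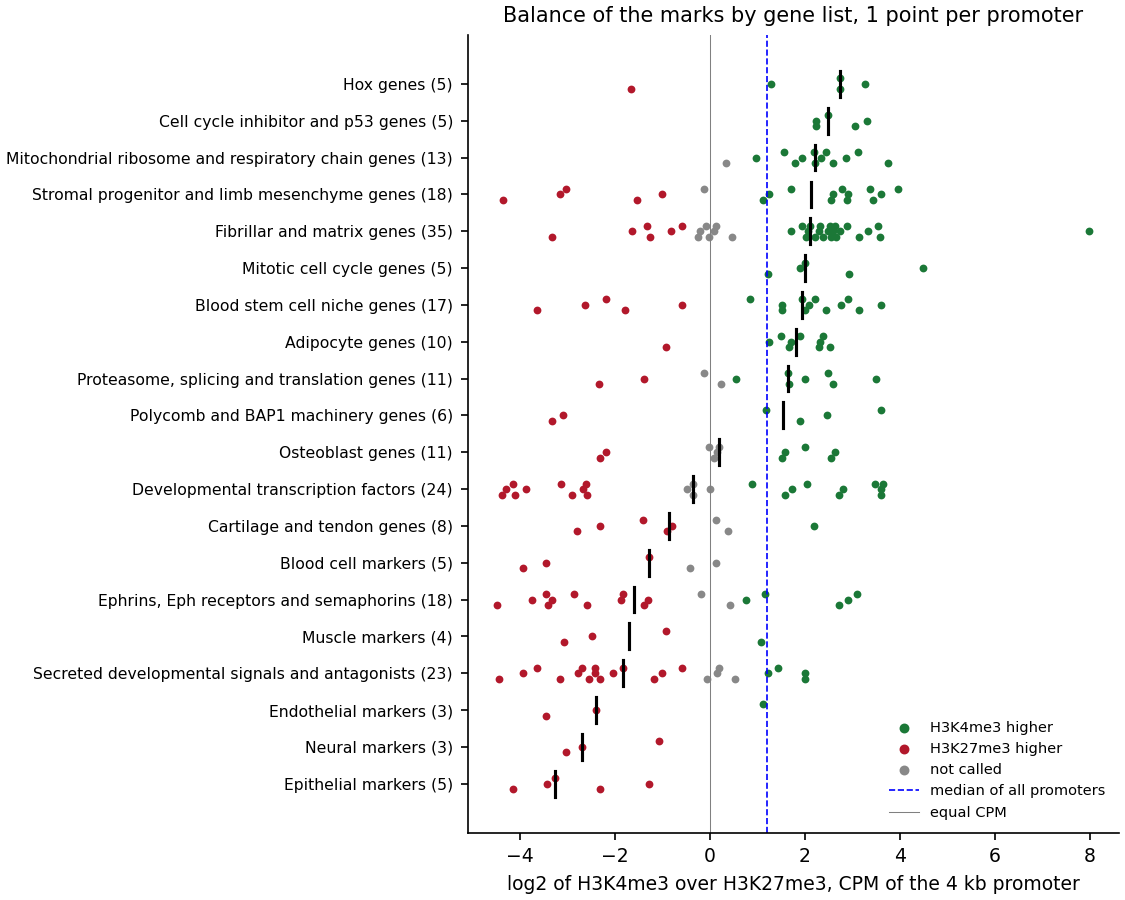
Balance of H3K4me3 over H3K27me3 (x axis, log2) of each tested promoter in lists of 3 or more, coloured by the edgeR call, with the number tested in brackets. Black bars are list medians, and the dashed line is the median of all promoters, 1.20. Medians run from 2.74 for Hox genes to -3.27 for epithelial markers, and Nid1, the point farthest to the right, rests on almost no reads and its place is not a measured ratio.

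Secreted developmental signals and guidance molecules had more calls toward H3K27me3 than the 30.8% of all promoters, a difference that was not tested. Of their genes, 13 of 23 and 14 of 18 carried the mark UP. Among all tested genes marked UP, 41.2% were called toward H3K27me3, and the part of this in the lists was not tested. Of 23 tested signals and antagonists, 15 were called toward H3K27me3 and 4 toward H3K4me3 (10 and 2 under all 4 scalings), with a median balance of -1.82. Jag2, a Notch ligand, had 328 and 274 CPM of H3K27me3 against 10.97 and 16.6 CPM of H3K4me3. Grem1, a BMP antagonist, had 649 and 514 CPM against 55.3 and 74.9 CPM. The calls toward H3K27me3 also took in the Wnt antagonists Sfrp1, Sfrp4 and Wif1, the BMP antagonists Chrd (not separate from Thpo, whose reads it shares) and Nog, and Fgf18, whereas Wnt5a, Wnt10b, Fstl3 and Inhba were called toward H3K4me3. Of 18 ephrins, Eph receptors and semaphorins, 11 were called toward H3K27me3 and 5 toward H3K4me3 (7 and 3 under all 4 scalings). Efna3 had 612 and 585 CPM of H3K27me3 against 47.4 and 61.7 CPM of H3K4me3, and Sema5a had 91.6 and 78.5 CPM against 724 and 736 CPM.

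Developmental transcription factors were split: 10 of 24 were called in each direction, 9 toward H3K4me3 and 10 toward H3K27me3 under all 4 scalings, with a median of -0.35. Gata2 (chr6:88191891-88195890), a factor of blood and endothelium, had 861 and 647 CPM of H3K27me3 and 43.0 and 45.2 CPM of H3K4me3. Foxd1 had 814 and 751 CPM of H3K27me3 and 45.5 and 35.01 CPM of H3K4me3. Pax8, a factor of thyroid and kidney, Neurod1, a factor of neurons and pancreatic islets, and Irx1, Eya2, Foxf1, Gsc, Tbx2 and Vax2 were also called toward H3K27me3. On the other side stood Foxc1, Shox2, Irx2, Emx2, Eya4, Tbx18, Hlx, Msx2, Foxa1 and Dlx2. In this list 11 promoters were in the H3K27me3-only class, 10 in the H3K4me3-only class and 0 in both.

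Of the markers of other cell types, 5 of 5 epithelial, 3 of 3 neural, 3 of 4 muscle, 3 of 5 blood and 2 of 3 endothelial promoters were called toward H3K27me3 (3, 2, 1, 2 and 2 under all 4 scalings), against 30.8% of all promoters. The 1 osteoclast marker tested, the protease gene Ctsk, was called toward H3K4me3 under all 4 scalings, with 132 and 115 CPM against 38.1 and 43.5 CPM of H3K27me3. St14, an epithelial membrane protease, had 374 and 375 CPM of H3K27me3 against 18.1 and 24.0 CPM of H3K4me3. Rag1 (chr2:101647533-101651532), the recombinase of lymphocytes, had 279 and 239 CPM against 14.5 and 19.4 CPM, although its upstream sequence is poor in CpG. Epor, Tubb3 and Chrnb1 were called toward H3K27me3 here, but under scaling on the outer flanks their balances were 0.36, 0.58 and 0.72.

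Lists of basic cell functions differed in their counts. Of 13 genes of the mitochondrial ribosome and respiratory chain, 12 were called toward H3K4me3 and 0 toward H3K27me3 by edgeR (11 and 0 under all 4 scalings), with a median of 2.22. Of 11 genes of the proteasome, splicing and translation, 7 were called toward H3K4me3 and 2 toward H3K27me3 (5 and 4 with TMM factors, and 5 and 0 under all 4 scalings). All 5 tested cell cycle inhibitor and p53 genes were called toward H3K4me3 under all 4 scalings, among them Mdm2, the ubiquitin ligase of p53, with 620 and 605 CPM against 63.2 and 59.8 CPM. Of 6 genes of the Polycomb and BAP1 machinery, 4 were called toward H3K4me3 and 2 toward H3K27me3 (3 and 2 under all 4 scalings), against 57.9% and 30.8% of all promoters. Phf19, a subunit that joins Polycomb repressive complex 2, had 502 and 500 CPM of H3K27me3 against 50.01 and 50.53 CPM of H3K4me3. Pcgf2, a subunit of Polycomb repressive complex 1, had 38.1 and 50.5 CPM against 508 and 565 CPM.

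Promoters with both marks were described from the class of 24, named here after their values were seen. Their balances ran from -1.10 to 0.74, and 5 were called toward H3K4me3 and 6 toward H3K27me3. Jag1 (chr2:137114645-137118644), a Notch ligand of the niche, had 405 and 334 CPM of H3K27me3 and 236 and 253 CPM of H3K4me3. Fst, which encodes the activin antagonist follistatin, had 251.2 and 251.0 CPM of H3K27me3 and 280 and 274 CPM of H3K4me3. In these genes both marks were above 211 CPM in every library, and no call held under all 4 scalings. In bulk cells, both marks on 1 promoter and a mix of cells that carry 1 mark each cannot be told apart.

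The promoters of highest lower rank, a rule that uses ranks and no cutoff, were Atrnl1, Bcl2l11, Zfp423, L3mbtl3, Zfp827, Usp10, Unc5b, Plxnd1, Hk2 and Ppm1h. Atrnl1 had 291 and 214 CPM of H3K27me3 and 404 and 439 CPM of H3K4me3. Bcl2l11, which encodes the pro-apoptotic protein BIM, had 266 and 249 CPM of H3K27me3 and 378 and 415 CPM of H3K4me3. The balances of Atrnl1, Bcl2l11 and Ppm1h, at 0.74, 0.62 and 0.58, became -0.15, -0.26 and -0.31 with TMM factors. Zfp423, a zinc finger factor of preadipocytes, had 170 and 190 CPM of H3K27me3 and 528 and 617 CPM of H3K4me3.

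Each mark was also set against its own outer flanks, which needs no scaling between antibodies. By edgeR's quasi-likelihood test over 3757 promoters, the central 2 kb was higher than the flanks in H3K4me3 at 3047 (81.1%). In H3K27me3 it was higher at 388 (10.3%) and lower at 221 (5.88%). Without H3K27me3 replicate 1 the 388 became 260, and without replicate 2 the 221 became 324. With only the upstream flank the H3K27me3 calls were 221 higher and 107 lower. By the antibody field the active mark was higher in the centre at 2611 promoters, fewer than by title. Of the 388 promoters with a focal rise in H3K27me3, 326 (84.0%) also had one in H3K4me3, by title a share near that of all promoters. By the antibody field 160 of 384 also had one in the active mark, a smaller share than the 2611 of all 3755. In the H3K27me3-only class 262 of 369 promoters (71.0%) had a focal rise in H3K27me3, and 305 of 369 (82.7%) one in H3K4me3, at a median level of 54.5 CPM of H3K4me3 against 175 CPM over all promoters. The class rests on the same H3K27me3 libraries, so its share of focal H3K27me3 is a description.

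Single genes showed several shapes. At Col14a1 the central 2 kb stood 2.70 ± 0.31 (log2, SE) above the flanks in H3K27me3 and 1.74 in H3K4me3. Spata2l, chosen after its values were seen, had 4.16 ± 0.43 in H3K27me3 and 4.95 in H3K4me3. Bmp4 had no focal rise in H3K27me3, at -0.12 ± 0.35 with adjusted p = 0.851 by edgeR, and H3K4me3 was lower in its centre than in its flanks by -2.58. The window of a neighbour, Gm15222, reaches the outer flank of Bmp4 and had rises of 1.38 in H3K27me3 and 4.03 in H3K4me3. The part of the neighbour in the Bmp4 values was not tested. Foxc1 was lower in its centre in H3K27me3 (-2.14 ± 0.33), while its H3K4me3 did not differ between centre and flanks past the threshold (0.25, adjusted p = 0.313 by edgeR).

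**Figure D3:**
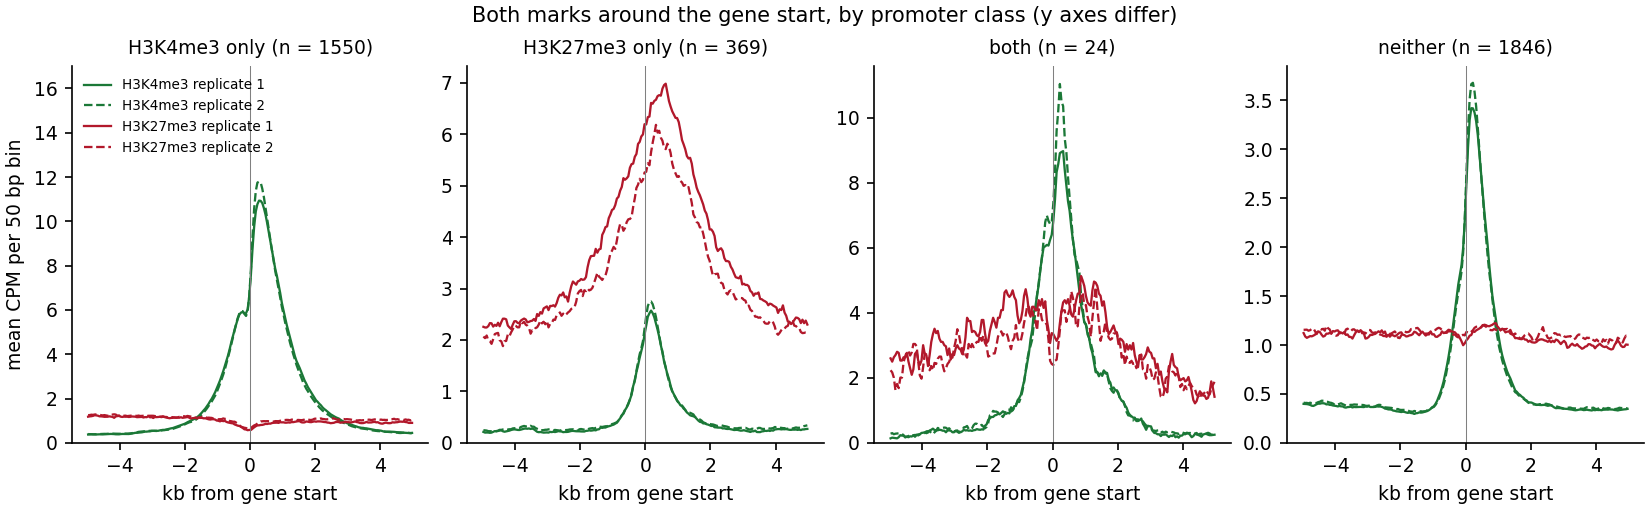
Mean level per 50 bp bin (y axis, CPM, scales differ) around the gene start (x axis, kb) in the 4 classes, for each H3K4me3 library (green) and H3K27me3 library (red). H3K4me3 peaks 175 to 325 bp after the start in every class, H3K27me3 dips at the start of H3K4me3-only promoters, and it forms a broad hill in the H3K27me3-only class.

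The mean profiles of the classes put these shapes together. Peaks were read from bins averaged over 5 neighbours, and levels at the start and in the flanks are means of unsmoothed bins. In the H3K4me3-only class, H3K27me3 at the start was 0.593 and 0.663 CPM per bin, against 1.06 and 1.15 CPM in the outer flanks. In the H3K27me3-only class it reached 6.88 CPM at 575 bp after the start in replicate 1 and 6.04 CPM at 375 bp in replicate 2. There H3K4me3 had a small peak of 2.50 and 2.68 CPM, 175 bp after the start, 10.3 and 9.85 times its flanks. In the class with both marks H3K27me3 stood lower at the start, at 67.5% and 56.6% of its highest value, than on either side, with maxima 875 and 925 bp downstream and 1325 and 725 bp upstream. This last profile averages 24 promoters.

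The other marks of the same WT cells, named by title, had no part in defining the classes. By the antibody field, the libraries called H3K27ac here would be those of H3K4me3. H2AK119ub1, the mark of Polycomb repressive complex 1, had a median of 187 and 174 CPM in the H3K27me3-only class and 194 and 180 CPM in the class with both marks. It had 108 and 105 CPM at H3K4me3-only promoters and 97.1 CPM in each library at promoters with neither. H3K27ac, a mark of active promoters and enhancers, ran the other way, with 246 and 251 CPM in the H3K4me3-only class and 44.0 and 46.1 CPM in the H3K27me3-only class. Promoters with both marks lay between, at 125 and 126 CPM. Promoters with neither mark had 72.3 and 71.7 CPM. Both libraries of each mark put the 4 classes in the same order, and no test was made, since 2 libraries measure each class.

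**Figure D4:**
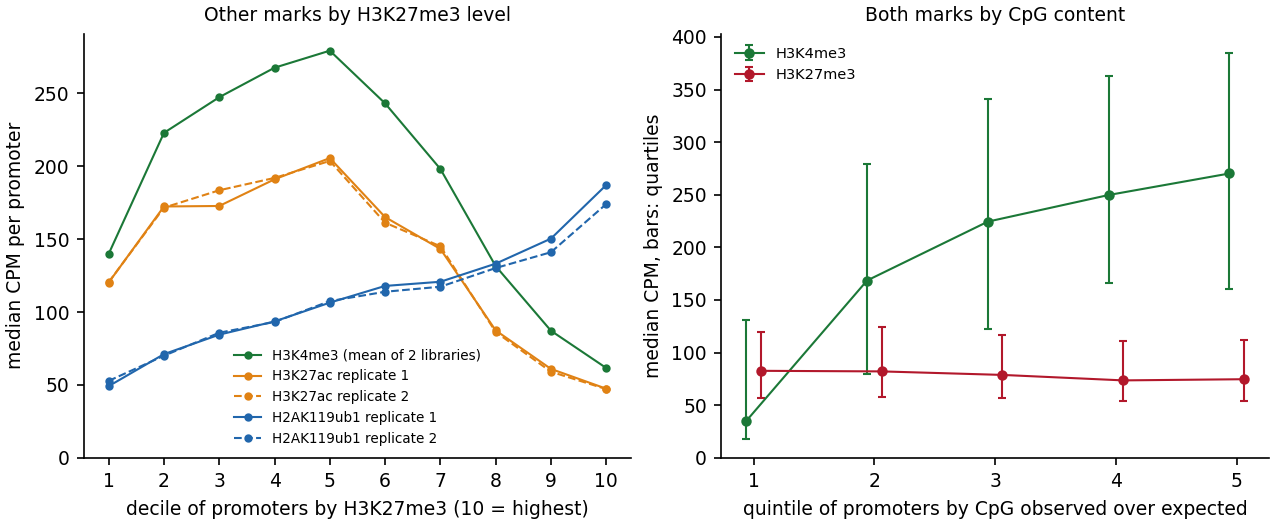
Left, median CPM of H3K4me3, H3K27ac and H2AK119ub1 (y axis) in deciles of promoters ordered by H3K27me3 (x axis). Right, median CPM of both marks with quartiles as bars (y axis) in quintiles of promoters ordered by CpG observed over expected (x axis). H2AK119ub1 rises over the deciles while H3K4me3 and H3K27ac are highest in decile 5, and CpG content separates H3K4me3 levels but not median H3K27me3.

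Across deciles of H3K27me3, the median H2AK119ub1 went from 49.2 and 52.8 CPM in the lowest to 187 and 174 CPM in the highest, rising at every step in both libraries. H3K4me3 did not fall steadily: its median was 140 CPM in the lowest decile, 279 CPM in decile 5 and 61.6 CPM in the highest. H3K27ac followed the same course, from 120 CPM in each library through 206 and 204 CPM to 47.4 and 47.1 CPM. The lowest decile also holds promoters with few reads in any mark.

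CpG content was known for the 2471 promoters (65.2%) with a RefSeq promoter sequence of 300 bases. From the CpG-poorest to the CpG-richest quintile, by observed over expected CpG, the median H3K4me3 went from 35.1 to 270 CPM and the median H3K27me3 from 82.7 to 74.7 CPM. The share of promoters in the H3K27me3-only or both class went from 6.26% to 11.1%. By class, the median observed over expected CpG was 0.814 for H3K4me3 only, 0.754 for H3K27me3 only, 0.915 for both and 0.600 for neither. The motif GGGCGG, searched on both strands, was in 65.6% of all these sequences, in 77.2% of the H3K4me3-only ones and in 73.5% of the H3K27me3-only ones. TATAAA, searched the same way, was in 8.30%, 6.51% and 8.52%.

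The genes marked UP and DOWN by the submitters differed in balance. Of 1834 tested genes marked UP, 755 (41.2%) were called toward H3K27me3, and of 1931 marked DOWN 404 (20.9%). The median balance was 0.58 for UP and 1.46 for DOWN. The median H3K27me3 was alike, at 78.8 and 80.3 CPM, and the median H3K4me3 was 139 CPM for UP and 219 CPM for DOWN. In the H3K27me3-only class 266 of 369 genes (72.1%) were marked UP, against 38.3% in the H3K4me3-only class. Whether the marks were made from these libraries is not given, so this is a description.

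Chromosomes differed in the level of both marks together. The median H3K27me3 of the outer flanks was 28.4 CPM on chromosomes 4 and 7 and 57.9 CPM on chromosome 10, and that of H3K4me3 was 5.69 CPM on chromosomes 4 and 7 and 11.3 CPM on chromosome 10. Over the 19 autosomes the flank medians of the marks had Pearson r = 0.977 and Spearman rho = 0.975, as a description. The ratio of the marks cancels a level that both share, but the classes, cut at the same CPM on every chromosome, do not. The part of this in the classes was not tested. The median balance ran from 0.30 on chromosome 18 to 1.76 on chromosome 4, where 18.9% of 322 promoters were called toward H3K27me3.

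The balance of WT cells was set against that of cKO cells by the interaction of mark and genotype in 8 libraries. By edgeR's quasi-likelihood test over 3774 promoters, the balance was higher in cKO at 689 (18.3%) and lower at 891 (23.6%). With TMM factors per mark the counts were 734 and 775. With each library left out in turn, at least 568 were higher and from 628 to 1063 lower, the last without WT H3K27me3 replicate 2. The WT libraries are those of the balance above, so the values are a second use of them. Of the stromal genes named above, Pparg, Col1a2 and Wnt10b were among those with more CPM of H3K4me3 in WT and more of H3K27me3 in cKO. This reading uses the main scaling. The zero between the marks depends on the scaling, and the cKO balance was not run under the others. At Pparg, cKO had 325 and 281 CPM of H3K27me3 and 53.3 and 57.8 CPM of H3K4me3. The difference was -4.98 ± 0.24 (SE, adjusted p = 3.83e-08 by edgeR) for Pparg, -4.28 ± 0.32 for Col1a2 and -4.70 ± 0.27 for Wnt10b. Kitl (-2.04) and Col1a1 (-2.14) were also called lower in cKO but had more CPM of H3K4me3 than of H3K27me3 there, at the same scaling. The difference for Cxcl12 was -0.61 ± 0.26 (SE) and did not pass the threshold (adjusted p = 0.0811 by edgeR), and that for Sox9 was 0.73 ± 0.33 (SE, adjusted p = 0.0996 by edgeR). The 10 promoters of lowest p toward H3K27me3 in WT were called higher in cKO, from 0.73 at Jakmip3 to 6.45 at Vldlr. Of the 10 toward H3K4me3, Itprip (-2.28) and Gli3 (-0.92) were called lower and the others were not called. Both groups were picked by the same WT libraries, which favours differences from WT at them.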

How the data were processed

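ChIP-seq of 4 WT libraries (2 of H3K4me3, 2 of H3K27me3) was analysed, with 8 other libraries of the series as context and 2 libraries in each group. Whole-number read counts were deposited by the authors for 3925 gene starts, each with 200 bins of 50 bp. The build GRCm38 and the tools Picard 2.25.5, Bowtie2 2.4.5, bedtools 2.30.0, cutadapt 1.18 and SAMtools 1.9 are from the submitters' processing notes, without settings. Groups and replicate numbers follow the titles.

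Symbols were assigned by strand and a RefSeq gene start (GRCm38.p6) at most 500 bp from the centre. In this way 3304 genes were named (84.2%), against 120 at positions shifted by 20 kb. Of the autosomal promoters 296 overlap that of another measured gene. Bins 61 to 140 were summed as the promoter. The library size was the sum of autosomal bins, without TMM factors. Tests were glmQLFit (robust) and glmQLFTest of edgeR 4.0.16 in R 4.3.3 after filterByExpr (minimum count 10), with Benjamini-Hochberg adjustment and a threshold of 0.05. Each was run on simulated counts in which most promoters did not differ, unlike these data, so no error rate for the calls here follows. SE is from the fit and SD is over 2 libraries. Input libraries were not used here.

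The members and the 23 lists were chosen with earlier results of these data known. Named genes are the 10 of lowest p in each direction, the 10 of highest lower rank in both marks, the 3 of lowest p in each list, and Cxcl12, Kitl, Pparg, Sox9, Col1a1 and Col1a2. Other members are named beside their list's count. Alternatives were 3 other scalings, DESeq2 1.42.0, other windows, no filter, 1 bin in 3, shared promoters left out, each library left out, the replicate block and the antibody field.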

Additional observations from a re-analysis of the deposited data

Results flagged for a closer look

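For 10 of the 16 promoters that are fixed by name or high in both ranks, the balance differed between cKO and WT by the interaction of mark and genotype in edgeR's quasi-likelihood test. On the log2 scale, cKO minus WT, it was higher in cKO at Atrnl1 (1.47), Bcl2l11 (1.82), L3mbtl3 (1.54) and Zfp827 (1.25). It was lower in cKO at Zfp423 (-1.46), Plxnd1 (-2.16), Kitl (-2.04), Pparg (-4.98), Col1a1 (-2.14) and Col1a2 (-4.28). At Col1a2, cKO had 134 and 96.2 CPM of H3K27me3 and 38.8 and 31.5 CPM of H3K4me3. At Bcl2l11, cKO had 110 and 113 CPM of H3K27me3 and 574 and 635 CPM of H3K4me3. At these 10 promoters the adjusted p lay between 3.83e-08 and 0.00247. For the background, 18.3% of promoters were called higher and 23.6% lower. The promoters high in both ranks were picked by their levels in the WT libraries that also enter this test. Differences from WT are thus favoured at them, and their number is not set against the background.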

How the results depend on the processing

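Counts of balance calls ranged from 2015 to 2243 toward H3K4me3 and from 1046 to 1174 toward H3K27me3 with each library left out. With outer flank scaling 527 were called toward H3K27me3. The replicate differences of the marks had r = 0.025 across promoters, and the main fit used no pairing by replicate number. With few H3K27me3 reads per promoter these differences hold much counting noise. The value therefore cannot tell whether libraries of the same number shared a source. With the replicate number as a block the counts were 2168 and 1161, and 675 and 866 for the interaction with genotype. Focal H3K27me3 rises numbered 231 with a core of 1 kb and 221 with the upstream flank only, falls numbered 107 with the upstream flank, and rises in both marks 199 and 180, or 160 by the antibody field. With each library left out, these 3 counts ranged over 260 to 397 (H3K27me3 rises), 213 to 324 (falls) and 229 to 327 (both). The central 2 kb held 58.9% of H3K4me3 and 22.3% of H3K27me3 counts. The top 20% shared 25 promoters. Pearson r was -0.120 with a pseudocount of 10 CPM, -0.0718 over 2 kb and -0.0526 by the antibody field, where Spearman rho was -0.314. With each library left out r ranged from -0.0192 to 0.0346. Promoters with both marks numbered 111, 1, 4 and 79 at 1.5 and 3 times the even level, by the antibody field and over 2 kb, and H3K27me3-only promoters 199 at 3 times.

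Of 92 named genes, 76 kept direction and call in every alternative run for them, and the 6 with a shared promoter have no value with shared promoters left out. The balance of Atrnl1 was -0.15 with TMM factors, -0.11 with promoter scaling and -0.45 over 10 kb. That of Bcl2l11 was -0.26, -0.22 and -0.31, and that of Ppm1h -0.31, -0.26 and -0.34. By the antibody field Bcl2l11 was -0.55 and Ppm1h -0.79. With outer flank scaling Epor was 0.36, Tubb3 0.58 and Chrnb1 0.72, and over 10 kb Eng was -0.041. The causes were not tested. The cutoff and antibody-field alternatives for the classes, and the antibody-field values for the correlation, were chosen after seeing the data.

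The depth of H3K27me3 limits single promoters most, with a median of 94 and 107 counts, each read counted about 3 times. Scaling between antibodies has no fixed zero, and 2 libraries per mark give few degrees of freedom.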
